A study of Mus musculus with 73 samples.

Results

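The 10 genes described here encode enzymes, cofactors and readers of H3K9 methylation, a histone mark of silent chromatin, and the zinc-finger proteins that protect imprinted DNA methylation. They are Ehmt1, Ehmt2, Wiz, Zfp644, Setdb1, Suv39h2, Trim28, Zfp57, Zfp445 and Cbx5. They were taken by name from a table of 30546 genes, and earlier results of these data were known when they were chosen.

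EHMT2 (G9a) and EHMT1 (GLP) work as a heterodimer that places mono- and dimethylation on H3K9, and the zinc-finger cofactors WIZ and ZFP644 hold that dimer on chromatin. SETDB1 and SUV39H2 place the trimethyl form, SETDB1 at sites to which TRIM28 (KAP1) brings it, and CBX5 (HP1 alpha) binds the methylated histone. ZFP57 and ZFP445 are KRAB zinc-finger proteins that recognise imprinting control regions and recruit TRIM28 to them, which keeps DNA methylation on the marked parental allele while the early embryo loses methylation elsewhere.

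RNA was measured in the epiblast, the precursor of the embryo proper, and the extraembryonic ectoderm (ExE), a precursor of the placenta, of single mouse embryos at E6.5. The wild-type Bdf1xCast embryos (BDF1 mother, CAST father) gave 7 epiblast and 7 ExE libraries from the same 7 embryos. The reciprocal wild-type CastxBdf1 cross gave 4 and 4 libraries from 4 embryos. The knockout embryos were all of the Bdf1xCast cross. Dnmt1 was targeted in 3 epiblast and 3 ExE libraries, Rnf2 in 6 and 5, and Eed in 9 and 10. The G9a-Glp group, with Ehmt2 and Ehmt1 targeted together, had 6 epiblast and 8 ExE libraries. DNMT1 copies DNA methylation at replication, RNF2 is the catalytic subunit of Polycomb repressive complex 1, and EED is a core subunit of Polycomb repressive complex 2. Every Bdf1xCast zygote, wild type included, came from sperm injection, and knockouts were made by injecting Cas9 mRNA with several guide RNAs per gene into zygotes, so a knockout embryo can be a mosaic of alleles. The CastxBdf1 embryos came from natural mating, so cross direction and mode of fertilisation cannot be told apart. Each library was 1 tissue of 1 embryo, and p-values measure the spread between embryos.

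The counts were reads over polymorphisms between BDF1 and CAST, given below relative to the library total (CPM). The number of polymorphisms per gene is not given in the sources used here, so levels were compared between samples of 1 gene and never between genes. Library totals ran from 1141414 to 17653087 reads, and the Rnf2 epiblast libraries were the deepest, at 5549733 to 17653087. Fold changes were estimated with TMM scaling, and scaling by the library total instead raised the median log2 difference of all genes by 0.21 and 0.25 in the Dnmt1 epiblast and ExE and by 0.19 and 0.16 in the Eed epiblast and ExE. For that reason a ratio of CPM means lies above the fitted fold change in those 4 comparisons. In bulk tissue, fewer cells of a type and less RNA per cell cannot be told apart.

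The tissue labels were checked against marker genes. The 8 ExE markers summed to 652 to 1216 CPM in the Bdf1xCast wild-type ExE and to 33.7 to 242 CPM in the epiblast. The 8 epiblast markers summed to 3176 to 5633 CPM in the epiblast and 736 to 1233 CPM in the ExE. In that ExE group Pou5f1 alone of the 8 was at 0, and the other epiblast markers had reads. The 9 visceral endoderm markers summed to 457 CPM in Bdf1xCast epiblast embryo 8 and to 2479 CPM in CastxBdf1 epiblast embryo 2, against group medians of 11.2 and 28.6 CPM. The 5 measured ectoplacental cone markers summed to 259 to 1685 CPM in the Bdf1xCast wild-type ExE, 955 to 3572 CPM in the Rnf2 ExE and 1256 to 7147 CPM in the Eed ExE.

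All 10 genes are on autosomes. In mm10 the methyltransferase genes lie at chr2:24790769-24919643 (Ehmt1), chr17:34898466-34914051 (Ehmt2), chr3:95323525-95357202 (Setdb1) and chr2:3455815-3474986 (Suv39h2). The cofactor genes lie at chr17:32354047-32389439 (Wiz) and chr5:106616739-106696830 (Zfp644), and the imprint-protecting genes at chr7:13024152-13031032 (Trim28), chr17:37001163-37010729 (Zfp57) and chr9:122848910-122886851 (Zfp445). Cbx5 lies at chr15:103191546-103239904. Setdb1 overlaps Cers2, Suv39h2 overlaps Dclre1c and Trim28 overlaps Gm31649 in the table, and strand use in the counting is not given in the sources used here, so reads of each such pair cannot be told apart.

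Promoter windows of 250 bases before the start of transcription were read from RefSeq (GRCm38.p6), where all 10 genes matched with 18 windows. The windows of 4 members are printed because the results below turn on them: Ehmt1 and Ehmt2, which encode the partners of 1 dimer but differed in their lineage pattern, Suv39h2, and Trim28. Capitals mark matches on either strand to the GC box (GGGCGG), the E2F motif (TTCCCGCC), the ZFP57 motif (TGCCGC), the E-box (CACGTG), the ETS motif (CCGGAAG) and the CCAAT box (CCAAT).
Ehmt1, chr2:24919610-24919859, minus strand: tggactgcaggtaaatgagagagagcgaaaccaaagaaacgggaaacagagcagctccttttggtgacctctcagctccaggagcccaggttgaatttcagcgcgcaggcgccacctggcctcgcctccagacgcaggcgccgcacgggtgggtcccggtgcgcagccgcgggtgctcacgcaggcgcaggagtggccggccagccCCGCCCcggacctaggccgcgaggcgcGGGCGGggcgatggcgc
Ehmt2, first of its starts, chr17:34898224-34898473, plus strand: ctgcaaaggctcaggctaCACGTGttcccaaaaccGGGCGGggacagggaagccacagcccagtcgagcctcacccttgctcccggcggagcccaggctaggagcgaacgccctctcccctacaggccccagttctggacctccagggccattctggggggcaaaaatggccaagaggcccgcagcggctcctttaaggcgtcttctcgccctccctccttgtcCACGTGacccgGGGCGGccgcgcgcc
Suv39h2, chr2:3474987-3475236, minus strand: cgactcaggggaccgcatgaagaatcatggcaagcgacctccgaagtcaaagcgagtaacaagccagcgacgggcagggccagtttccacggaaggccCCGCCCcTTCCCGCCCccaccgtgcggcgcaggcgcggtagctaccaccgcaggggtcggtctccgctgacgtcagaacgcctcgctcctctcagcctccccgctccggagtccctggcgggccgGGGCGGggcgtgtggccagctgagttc
Trim28, chr7:13023902-13024151, plus strand: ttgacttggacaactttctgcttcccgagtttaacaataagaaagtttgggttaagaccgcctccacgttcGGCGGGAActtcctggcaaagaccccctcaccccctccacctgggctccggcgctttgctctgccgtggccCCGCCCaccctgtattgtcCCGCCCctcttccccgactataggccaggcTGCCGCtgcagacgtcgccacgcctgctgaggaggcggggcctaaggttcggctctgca
The 4 windows held 26 CpG dinucleotides for Ehmt1, 18 for Ehmt2, 27 for Suv39h2 and 17 for Trim28, against a median of 6 over 32817 mouse windows. The Ehmt1 window held 2 GC boxes, and the Ehmt2 window held 2 GC boxes and 2 E-boxes, a motif found in 6.02% of all windows. The E2F motif, which shares letters with the GC box, was in the Suv39h2 and Trim28 windows and in 1.85% of all windows. It was also in both windows of Zfp644 and 1 of 4 of Wiz, and had no match in those of Setdb1, Zfp445 and Cbx5, which are not printed. The GC box was in 32.7%, the CCAAT box in 33.8% and the ETS motif in 6.9% of all windows. The ZFP57 motif was in the Trim28 window, in the further Ehmt2 window that is not printed, and in 8.68% of all windows. A match is a string of letters and no evidence of binding.

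The lineages were compared first in the wild type, where 7 of the 10 members passed the filter on low counts. Ehmt2 was 5.19-fold higher in ExE than in epiblast in the Bdf1xCast cross, while Setdb1, Suv39h2, Trim28, Zfp445 and Cbx5 were lower in ExE, and Ehmt1 did not pass the test in either cross. The same 6 genes passed, in the same directions, in the reciprocal cross. Over all genes tested, 28.3% passed as higher in ExE and 28.4% as lower in the Bdf1xCast cross (edgeR quasi-likelihood test, Benjamini-Hochberg adjusted p under 0.05), and 22.0% and 23.0% in the CastxBdf1 cross. The median log2 difference of the 7 members was -0.65 and -0.79 in the crosses, and that of all genes -0.01 in each.

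Ehmt2, the main dimethyltransferase, had 0.396, 2.52 and 6.27 CPM (lowest, median, highest) in the Bdf1xCast epiblast, from 1 to 19 reads per library, and 4.33, 15.4 and 23.3 CPM in the ExE. In the CastxBdf1 cross it had 4.83, 1.91, 2.05 and 5.79 CPM in the epiblast of embryos 1 to 4 and 22.7, 12.4, 23.8 and 23.3 CPM in the ExE. The ExE level exceeded the epiblast level of the same embryo in 7 of 7 and 4 of 4 embryos, the groups of the CastxBdf1 cross did not overlap, and in the Bdf1xCast cross 6 of 7 ExE libraries lay above every epiblast library. The log2 difference was 2.38 (SE 0.45, edgeR adjusted p 0.000216) in the Bdf1xCast and 2.44 (SE 0.42, adjusted p 0.000422) in the CastxBdf1 embryos.

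Ehmt1, the other partner of the dimer, had 14.5, 27.5 and 39.8 CPM in the Bdf1xCast epiblast and 15.3, 34.6 and 40.6 CPM in the ExE. The tissues overlapped nearly completely, and Ehmt1 was higher in the ExE of 4 embryos and in the epiblast of 3. ExE minus epiblast, the log2 difference was 0.01 (SE 0.26, edgeR adjusted p 0.986) in this cross and -0.32 (adjusted p 0.252) in the CastxBdf1 cross, where the means were 36.7 ± 5.03 CPM in epiblast and 29.8 ± 4.99 CPM in ExE (SD, n = 4 each).

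Setdb1, whose product places trimethylation together with TRIM28, had 43.6, 50.2 and 84.6 CPM in the Bdf1xCast epiblast and 20.8, 26.8 and 50.7 CPM in the ExE. Both crosses had 1 epiblast library far above the rest, embryo 8 at 84.6 CPM in the Bdf1xCast and embryo 2 at 83.1 CPM in the CastxBdf1 cross, and these are the 2 wild-type epiblast libraries with the highest summed visceral endoderm markers. Whether those markers and the Setdb1 level are linked was not tested. The log2 difference was -0.76 (SE 0.20, edgeR adjusted p 0.00302) with Bdf1xCast embryo 8 and -0.71 (adjusted p 0.00378) without that embryo, and Setdb1 was lower in the ExE of 6 of 7 embryos. In the CastxBdf1 cross it was -0.85 (SE 0.27, adjusted p 0.0208), and -0.92 (adjusted p 0.0629) without embryo 3.

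Suv39h2, whose product methylates pericentromeric repeats, had 101, 117 and 128 CPM in the Bdf1xCast epiblast and 49.3, 70.8 and 92.7 CPM in the ExE. The tissues did not overlap in either cross, and every embryo had the lower value in its ExE. ExE minus epiblast, the log2 difference was -0.65 (SE 0.13, edgeR adjusted p 0.000312) and -0.79 (SE 0.21, adjusted p 0.00754), the latter -0.69 (adjusted p 0.0737) without CastxBdf1 embryo 3.

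Trim28, the corepressor that KRAB zinc-finger proteins recruit, had 791, 947 and 1393 CPM in the Bdf1xCast epiblast and 375, 436 and 989 CPM in the ExE. The high ExE value was that of embryo 6, and the other 6 ExE libraries lay below every epiblast library. The log2 difference was -0.85 (SE 0.20, edgeR adjusted p 0.00126), and -1.04 (adjusted p 7.42e-05) without embryo 6. In the CastxBdf1 cross, at 882 ± 220.3 CPM in epiblast and 439 ± 85.4 CPM in ExE (SD, n = 4 each), it was -1.01 (SE 0.19, adjusted p 0.000841).

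Zfp445, a KRAB zinc-finger protein of imprint protection, had the largest fall of the 7 members tested in each cross. It had 98.4, 119 and 172 CPM in the Bdf1xCast epiblast and 49.7, 53.7 and 79.4 CPM in the ExE, with no overlap in either cross. ExE minus epiblast, the log2 difference was -1.08 (SE 0.14, edgeR adjusted p 4.6e-06) and -1.23 (SE 0.30, adjusted p 0.00503).

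Cbx5, the reader of the mark, had 240, 283 and 318 CPM in the Bdf1xCast epiblast and 138, 176 and 215 CPM in the ExE, again without overlap in either cross. The log2 difference was -0.62 (SE 0.12, edgeR adjusted p 0.000296) and -0.54 (SE 0.17, adjusted p 0.0192). The CastxBdf1 value did not pass without embryo 1 (-0.49, adjusted p 0.126) or without embryo 3 (-0.46, adjusted p 0.145).

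**Figure D1:**
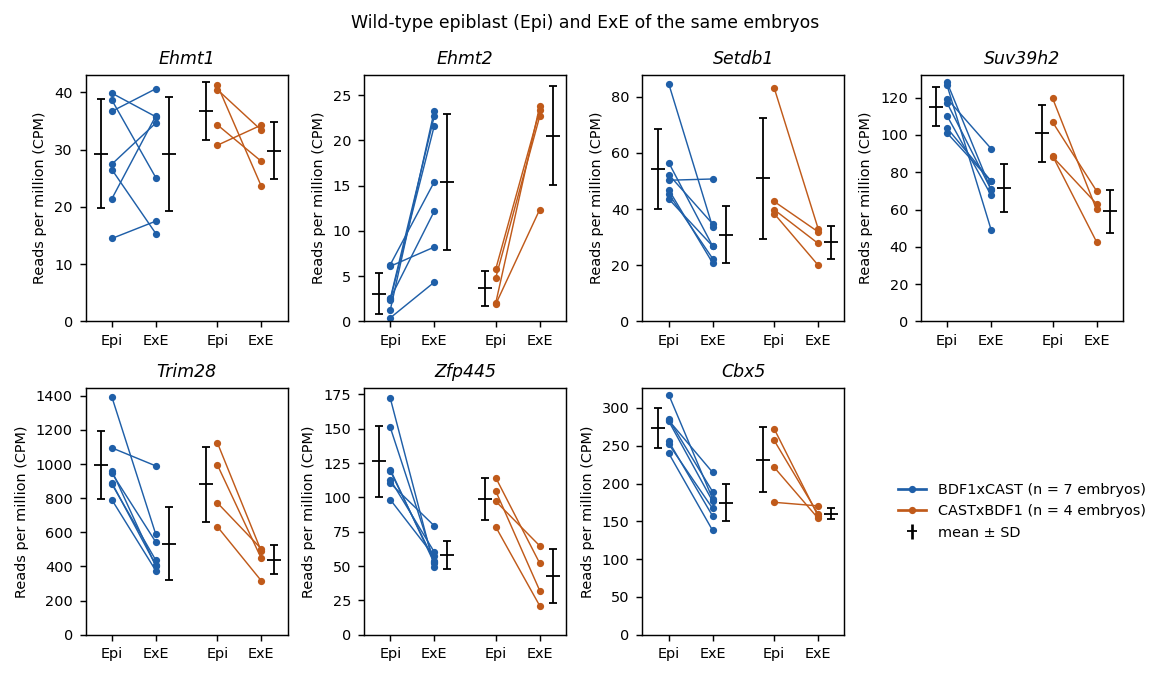
Wild-type CPM of the 7 members that passed the filter on low counts, with a line joining the epiblast and ExE of each embryo, for the Bdf1xCast (7 embryos) and CastxBdf1 (4 embryos) crosses, and black bars for the mean and SD. Lines for Ehmt2 rise in all 11 embryos, lines for Suv39h2, Trim28, Zfp445 and Cbx5 fall in all 11, and those for Ehmt1 cross.

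The remaining 3 members were near the limit of detection, and single values were compared with a two-sided exact permutation test adjusted over 29 such tests. The test is unpaired and ignores that wild-type epiblast and ExE came from the same embryos. Zfp57, the KRAB zinc-finger protein best known for imprint protection, had 0 reads in all 11 wild-type epiblast libraries. In ExE it had 13 reads over 7 Bdf1xCast libraries (0.634 ± 0.447 CPM, SD) and 10 reads over 4 CastxBdf1 libraries (0.719 ± 0.690 CPM, SD). The pooled ExE level was 3.60-fold and 2.46-fold a floor of 3 reads over the epiblast group (exact permutation p 0.00466, adjusted 0.0913, for Bdf1xCast). These ratios leave out the counting error of the ExE reads, so they are not lower limits. Neither passed after adjustment, and the direction was seen in 6 of 7 and 3 of 4 embryos.

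Zfp644, a cofactor of the dimer, had 1.31 ± 0.998 CPM in the Bdf1xCast epiblast and 0.742 ± 0.500 CPM in the ExE (SD, n = 7 each; exact permutation p 0.211). In the CastxBdf1 cross it had 2.21 ± 0.671 CPM and 0.277 ± 0.220 CPM without overlap (SD, n = 4 each). The unpaired exact permutation p was 0.0286, the smallest that 4 against 4 allows without pairing, and 0.242 after adjustment. Wiz, the other cofactor, had 0 reads in all 14 Bdf1xCast wild-type libraries and 34 reads over all 72 libraries, so no difference was detectable at this depth.

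The RNA level of each targeted gene was set beside the label. An edited allele can still be transcribed, so RNA alone does not decide a label. Ehmt1 and Ehmt2 are themselves the targets of the G9a-Glp group. Ehmt2 in that ExE was at 1.65, 3.30 and 7.15 CPM (lowest, median, highest), 24.4% of the wild-type mean, with 6 of 8 libraries below every wild-type library. Its log2 difference was -2.04 (SE 0.37, edgeR adjusted p 0.000751). Ehmt1 in that ExE was at 4.40, 12.5 and 26.1 CPM, 50.6% of the wild-type mean with 5 of 8 libraries below, and a log2 difference of -1.04 (SE 0.29, adjusted p 0.0211).

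In the G9a-Glp epiblast the counts gave no such fall. Ehmt2 was at 3.07 ± 1.43 CPM (SD, n = 6) against 3.07 ± 2.27 CPM in the wild type (SD, n = 7; exact permutation p 0.985), where 1 to 19 reads per library left little room for a fall to be detected. Ehmt1 was at 4.14, 18.05 and 50.5 CPM, 72.2% of the wild-type mean, with 2 of 6 libraries below and 1 above every wild-type library (log2 difference -0.61, SE 0.41, edgeR adjusted p 0.263).

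The parental alleles of Ehmt1 showed how uneven the G9a-Glp embryos were. The maternal share of Ehmt1 reads was 60.9% ± 4.48 (SD, n = 7) in the wild-type Bdf1xCast ExE, with a range of 55.7% to 67.4%. In the G9a-Glp ExE it was 58.6% ± 25.3 (SD, n = 8), with a range of 24.0% to 92.5%. Of the 8 libraries 3 lay above and 4 below the wild-type range. The lowest was embryo 3, with 6 maternal of 25 reads (exact binomial 95% interval 9.36% to 45.1%), and the highest was embryo 9, with 37 of 40 (79.6% to 98.4%). The intervals, which cover counting error only, lay wholly outside the wild-type range in 4 of the 8 libraries, 2 on each side. In the epiblast the share was 49.0% ± 18.0 (SD, n = 6) against 60.2% ± 6.58 (SD, n = 7), and 1 of 6 intervals lay outside the wild-type range.

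The other targets fell unevenly. Eed was at 5.96% and 3.95% of the wild-type mean in its epiblast and ExE groups, with all 19 libraries below the wild type. Dnmt1 was at 24.3% in its epiblast and 61.4% in its ExE. In the libraries labelled Dnmt1 ExE embryos 1, 2 and 3 it was at 47.9, 34.5 and 5.16 CPM. The lowest wild-type ExE library had 35.7 CPM, so embryo 1 was not below the wild type and embryo 2 was only just below it. Rnf2 was at 58.6% in its epiblast, with 4 of 6 libraries below, and at 77.4% in its ExE, with 0 of 5 below, so for the libraries labelled Rnf2 ExE the counts do not show the loss, and directions from them rest on the label.

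Across the 8 comparisons of a knockout with the Bdf1xCast wild type, 55 tests of members were made, of which 4 passed as higher and 21 as lower. All 4 that rose were Ehmt2. Without Ehmt1 and Ehmt2 in their own knockout, 4 of 52 tests passed as higher and 19 as lower. The 4 epiblast comparisons share the same 7 wild-type libraries, as do the 4 ExE comparisons, so their values are given side by side and not as independent evidence. Among all genes, 6.92% rose and 7.02% fell in the Dnmt1 epiblast, 19.6% and 15.0% in the G9a-Glp epiblast, 18.3% and 12.8% in the Rnf2 epiblast, and 18.0% and 18.9% in the Eed epiblast. In the ExE 8.54% rose and 9.96% fell in Dnmt1, 8.73% and 6.42% in G9a-Glp, 12.2% and 9.99% in Rnf2, and 22.7% and 18.1% in Eed.

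Members that passed in the epiblast were 1 of 7 in Dnmt1 (Ehmt2 higher), 3 of 6 in G9a-Glp (all lower), 5 of 7 in Rnf2 (1 higher, 4 lower) and 5 of 7 in Eed (1 higher, 4 lower). In the ExE they were 1 of 7 in Dnmt1 (Ehmt2 higher), and 3 of 7, 4 of 7 and 3 of 7 in G9a-Glp, Rnf2 and Eed (all lower), where the G9a-Glp count holds both targeted genes and Trim28. Without the targeted genes the median log2 difference of the members tested ran from -0.41 in the Rnf2 epiblast to 0.04 in the Dnmt1 epiblast, with -0.39 in the G9a-Glp ExE (-0.51 with them), while that of all genes stayed between -0.03 and 0.02.

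**Figure D2:**
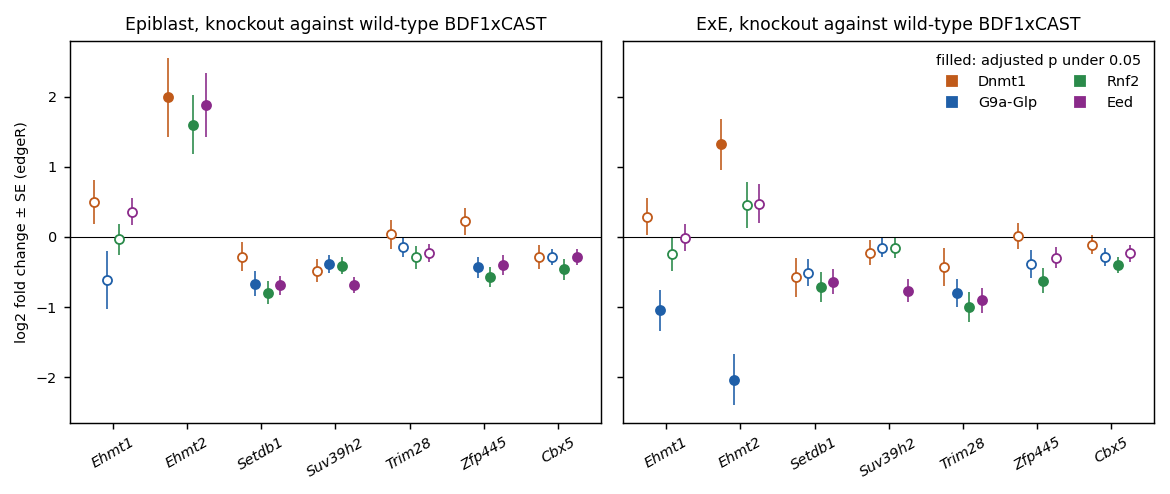
Log2 difference of each knockout from the Bdf1xCast wild type with its standard error, for each member tested in epiblast and ExE, with filled symbols where the edgeR adjusted p was under 0.05. Filled Ehmt2 symbols stand at 1.60 to 1.99 in the Dnmt1, Rnf2 and Eed epiblast, at 1.32 in the Dnmt1 ExE and at -2.04 in the G9a-Glp ExE.

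Ehmt2 rose in the epiblast of every knockout in which it was not itself targeted. It was at 14.1, 9.64 and 18.1 CPM in the Dnmt1 epiblast, at 5.41, 9.12 and 13.5 CPM (lowest, median, highest) in the Rnf2 epiblast and at 2.53, 10.8 and 28.3 CPM in the Eed epiblast, against 0.396, 2.52 and 6.27 CPM in the wild type. All 3 Dnmt1, 5 of 6 Rnf2 and 8 of 9 Eed libraries lay above every wild-type library. The log2 differences were 1.99 (SE 0.56, edgeR adjusted p 0.0312) in Dnmt1, 1.60 (SE 0.42, adjusted p 0.00875) in Rnf2 and 1.88 (SE 0.45, adjusted p 0.00297) in Eed. These are 3.98-fold, 3.04-fold and 3.69-fold, and the mean levels of 13.9, 9.31 and 12.8 CPM stayed below the 15.4 CPM of the wild-type ExE. The Dnmt1 value did not pass without embryo 1 (2.01, adjusted p 0.0889) or without embryo 3 (1.73, adjusted p 0.150). Every Rnf2 epiblast library (lowest 5549733 reads) was deeper than every wild-type one (highest 3028267), so depth and genotype cannot be told apart there.

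In the ExE Ehmt2 was at 38.2, 45.0 and 52.9 CPM in Dnmt1, above every wild-type library (highest 23.3 CPM), for a log2 difference of 1.32 (SE 0.36, edgeR adjusted p 0.0215). It did not pass with any 1 of the 3 embryos left out (adjusted p 0.0502 without embryo 1, 0.0660 without 2 and 0.112 without 3), while the value stayed between 1.21 and 1.41. In the Rnf2 ExE (25.0, 27.4, 27.1, 17.7 and 12.9 CPM) and the Eed ExE (7.11, 26.4 and 33.2 CPM) it overlapped the wild type, with log2 differences of 0.46 (adjusted p 0.324) and 0.48 (adjusted p 0.179).

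Ordered by mean, Ehmt2 stood at 3.07 CPM in the Bdf1xCast epiblast, 3.07 in the G9a-Glp epiblast, 3.64 in the CastxBdf1 epiblast, 3.75 in the G9a-Glp ExE, 9.31 in the Rnf2 epiblast, 12.8 in the Eed epiblast, 13.9 in the Dnmt1 epiblast, 15.4 in the Bdf1xCast ExE, 20.5 in the CastxBdf1 ExE, 22.0 in the Rnf2 ExE, 24.1 in the Eed ExE and 45.4 in the Dnmt1 ExE. Neighbours in this order overlapped in their library values except the last pair, where all 3 Dnmt1 ExE libraries lay above every Eed ExE library. Ehmt1 had a narrower order, from 14.8 CPM in the G9a-Glp ExE to 48.7 CPM in the Dnmt1 epiblast, and it passed the test against the wild type in 1 of 8 comparisons, its own knockout in ExE.

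**Figure D3:**
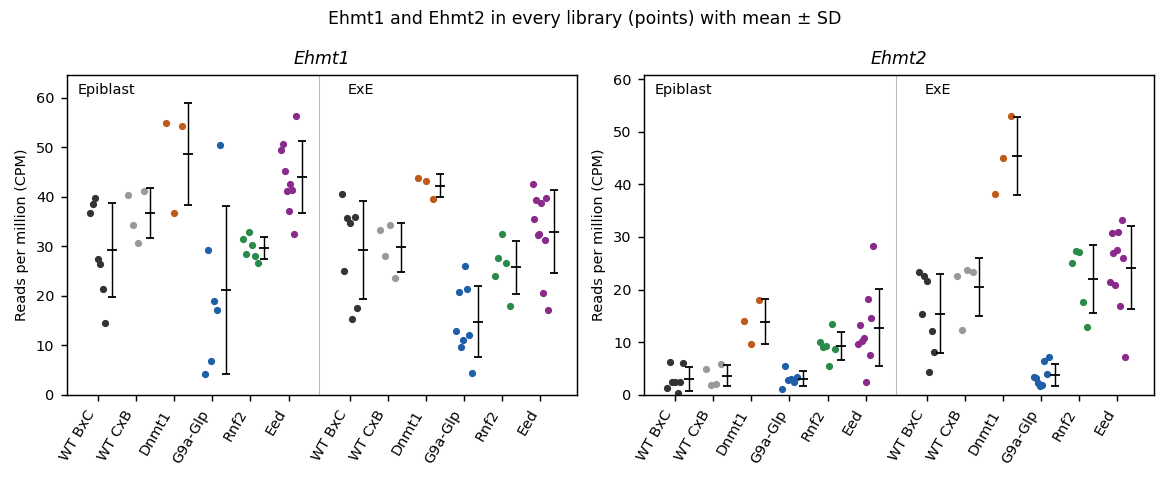
CPM of Ehmt1 and Ehmt2 in each library of the 12 groups, with the mean and SD of each group. Ehmt2 is lowest in the wild-type and G9a-Glp epiblast and the G9a-Glp ExE, at means of 3.07 to 3.75 CPM, and highest in the Dnmt1 ExE at 45.4 CPM.

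Setdb1 was below the wild type in all 8 comparisons, with log2 differences from -0.80 to -0.28, and passed in 5. In the epiblast it was at 25.7, 35.0 and 48.9 CPM in G9a-Glp, 20.9, 33.7 and 35.1 CPM in Rnf2 and 28.6, 36.0 and 48.9 CPM in Eed, against 43.6, 50.2 and 84.6 CPM in the wild type. The Rnf2 libraries all lay below the wild type, as did 5 of 6 G9a-Glp and 7 of 9 Eed libraries. The differences were -0.67 (edgeR adjusted p 0.00813), -0.80 (adjusted p 0.00191) and -0.69 (adjusted p 0.000876). Without the high wild-type embryo 8 they were -0.57 (adjusted p 0.00861), -0.72 (adjusted p 0.00118) and -0.56 (adjusted p 0.00193). In the Dnmt1 epiblast, at 50.6, 54.3 and 48.3 CPM, it was -0.28 (adjusted p 0.410).

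In the ExE Setdb1 passed in Rnf2, at 17.6, 21.2, 22.7, 17.3 and 19.005 CPM (log2 difference -0.71, edgeR adjusted p 0.0230), and in Eed, at 16.5, 20.02 and 30.6 CPM (-0.64, adjusted p 0.00744), against 20.8, 26.8 and 50.7 CPM in the wild type. Groups overlapped in each case. The Rnf2 value did not pass without embryo 2 (-0.68, adjusted p 0.0610), embryo 6 (-0.68, adjusted p 0.0636) or embryo 7 (-0.70, adjusted p 0.0556). The Eed value did not pass with library-total scaling (-0.46, adjusted p 0.0645) or with the embryo block (-0.54, adjusted p 0.0521).

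Suv39h2 fell in the Eed knockout in both lineages. In the epiblast it was at 61.9, 79.1 and 96.8 CPM, below every wild-type library (lowest 101 CPM), for a log2 difference of -0.68 (SE 0.11, edgeR adjusted p 0.000159). In the ExE it was at 31.6, 49.8 and 62.5 CPM against 49.3, 70.8 and 92.7 CPM, for a difference of -0.77 (SE 0.16, adjusted p 0.000741). The Rnf2 epiblast was also below every wild-type library, at 72.3, 91.4 and 96.1 CPM (-0.41, adjusted p 0.0186). In the G9a-Glp epiblast, at 83.1, 90.2 and 116 CPM, 5 of 6 libraries lay below the wild type (-0.38, adjusted p 0.0242). This call was lost in 4 of 11 alternatives, among them library-total scaling, no filter and thinned depth. Another left out the libraries labelled embryos 2 and 7 (-0.32, adjusted p 0.118). Their Ehmt1 of 29.3 and 50.5 CPM was not below the wild-type mean of 29.3 CPM. All 3 Dnmt1 epiblast libraries, at 99.4, 87.6 and 99.3 CPM, lay below the wild type, with a difference of -0.48 that did not pass (adjusted p 0.0713).

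Trim28 passed in 3 of 4 comparisons in the ExE and in 0 of 4 in the epiblast, which is not itself a test of the lineages. In the ExE it was at 252, 312 and 461 CPM in G9a-Glp, at 249.9, 325, 242, 289.9 and 278 CPM in Rnf2, and at 260, 321 and 409 CPM in Eed, against 375, 436 and 989 CPM in the wild type. All 5 Rnf2 libraries lay below the wild type, as did 7 of 8 G9a-Glp and 8 of 10 Eed libraries. The log2 differences were -0.80 (SE 0.20, edgeR adjusted p 0.00916), -0.997 (SE 0.21, adjusted p 0.00362) and -0.91 (SE 0.18, adjusted p 0.000361). Without the high wild-type embryo 6 they were -0.59 (adjusted p 0.0159), -0.79 (adjusted p 0.00165) and -0.71 (adjusted p 0.000667). The Dnmt1 ExE, at 382, 482 and 555 CPM, differed by -0.43 (adjusted p 0.305). In the epiblast the 4 differences ran from -0.29 to 0.04 (adjusted p 0.173 to 0.930).

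The summed ectoplacental cone markers had medians of 868 CPM in the wild-type ExE and 1232, 2012 and 3933 CPM in the G9a-Glp, Rnf2 and Eed ExE in which Trim28 fell, and the summed ExE markers had medians of 772, 825, 611 and 459 CPM. The Dnmt1 ExE had a median of 1310 CPM for the cone markers and 925 CPM for the ExE markers. The part of these tissue markers in the member values was not tested.

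Zfp445 passed as lower in 4 of 8 comparisons and Cbx5 in 3. In the epiblast Zfp445 was at 67.7, 107 and 119 CPM in G9a-Glp (log2 difference -0.44, edgeR adjusted p 0.0295), 62.2, 90.8 and 97.6 CPM in Rnf2 (-0.57, adjusted p 0.00717) and 85.9, 103 and 164 CPM in Eed (-0.40, adjusted p 0.0369), against 98.4, 119 and 172 CPM in the wild type. The Rnf2 libraries lay below the wild type, and the others overlapped it. The Eed call was lost in 7 of 10 alternatives, with -0.20 (adjusted p 0.336) under library-total scaling, -0.30 (adjusted p 0.0948) without wild-type embryo 8 and -0.39 (adjusted p 0.0645) without wild-type embryo 6. The G9a-Glp call was lost in 3 of 11, under library-total scaling (adjusted p 0.116), with no filter (adjusted p 0.111) and with the embryo block (adjusted p 0.0935). In the ExE it passed in Rnf2, at 43.9, 42.3, 35.7, 24.2 and 47.7 CPM against 49.7, 53.7 and 79.4 CPM in the wild type, without overlap (-0.63, adjusted p 0.0193).

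Cbx5 was at 124, 210 and 260 CPM in the Rnf2 epiblast (log2 difference -0.46, edgeR adjusted p 0.0310) and 218, 258 and 325 CPM in the Eed epiblast (-0.28, adjusted p 0.0463), against 240, 283 and 318 CPM. Groups overlapped in both. The Rnf2 epiblast call was lost in 5 of 10 alternatives, among them library-total scaling, no filter and thinned depth. Without wild-type embryo 6 the Rnf2 value was -0.46 (adjusted p 0.0561). The Eed call was lost in 7 of 10 alternatives, and with library-total scaling the value was -0.09 (adjusted p 0.573). In the Rnf2 ExE, at 141, 129, 140, 144 and 129 CPM, the value was -0.40 (adjusted p 0.0179). That call was lost in 6 of 16 alternatives, among them library-total scaling and no filter. It was also lost without embryo 4 (-0.38, adjusted p 0.0515) or embryo 7 (-0.38, adjusted p 0.0535).

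The Rnf2 epiblast had a median epiblast marker sum of 2813 CPM against 3634 CPM in the wild type, with 4 of 6 libraries below the lowest wild type, and a median cone marker sum of 57.5 CPM against 16.1 CPM. The part of these markers in the 4 falls and the rise of members there was not tested.

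In the libraries labelled Rnf2 ExE embryos 2, 4, 5, 6 and 7 the Rnf2 gene was at 29.5, 22.4, 39.5, 62.7 and 21.9 CPM, all within the wild-type range of 21.4 to 65.9 CPM. With the 3 highest, embryos 2, 5 and 6, left out, a choice made from these values, none of the 4 members that had passed in the Rnf2 ExE passed. Trim28 was then at -0.89 (edgeR adjusted p 0.144), Setdb1 at -0.67 (adjusted p 0.245), Zfp445 at -0.42 (adjusted p 0.278) and Cbx5 at -0.49 (adjusted p 0.132), from 2 remaining libraries. The embryo number, which does not pair knockout with wild-type embryos, entered as a block in an alternative fit. The 5 Rnf2 epiblast calls then had adjusted p from 0.0614 to 0.209 and the 4 Rnf2 ExE calls from 0.0796 to 0.206.

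**Figure D4:**
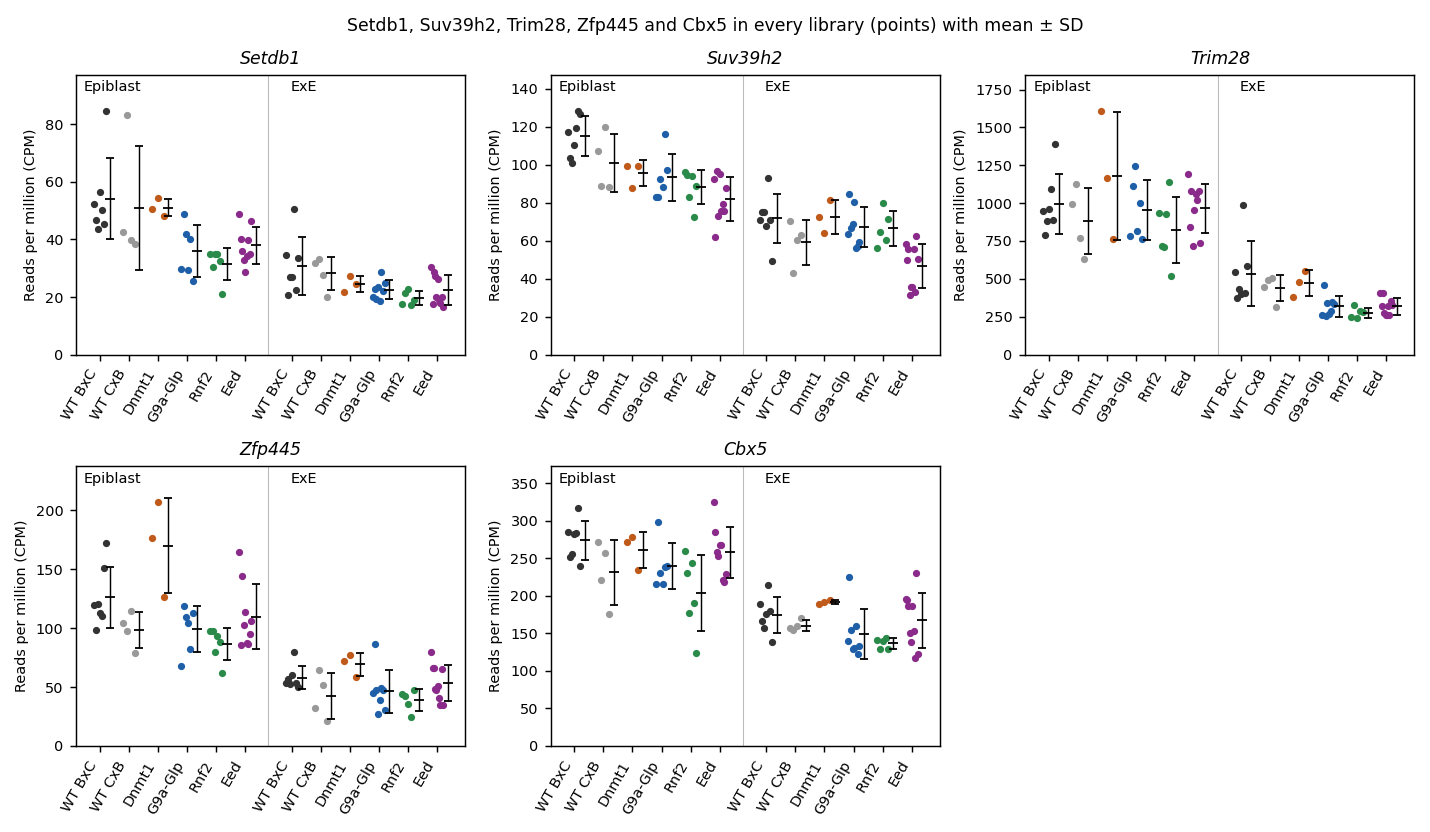
CPM of Setdb1, Suv39h2, Trim28, Zfp445 and Cbx5 in each library of the 12 groups, with the mean and SD of each group. All 5 genes stand higher in the wild-type epiblast than in the wild-type ExE, and Trim28 in ExE has 1 wild-type library at 989 CPM above the rest.

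The low members gave few reads in the knockouts. Zfp57 had 12 reads over 9 Eed epiblast libraries against 0 in the wild-type epiblast (exact permutation p 0.00629, adjusted 0.0913). The pooled Eed level was 3.07-fold a floor of 3 reads over the wild-type group, with the counting error of the 12 reads left out. Zfp57 was at 2.06 ± 0.674 CPM in the Dnmt1 ExE (SD, n = 3) against 0.634 ± 0.447 CPM in the wild type (SD, n = 7, exact permutation p 0.0333, adjusted 0.242). None of the 29 tests passed after adjustment, and 5 of them had an exact permutation p under 0.05 before it.

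Whether a response differed between the lineages was tested with an interaction term. Trim28 passed for Eed, where the log2 response in ExE was lower than that in epiblast by a difference of -0.68 (SE 0.23, edgeR adjusted p 0.0399), against 15.9% of all genes that passed. The Trim28 value was -0.71 (adjusted p 0.0540) with no filter on low counts and -0.62 (adjusted p 0.0507) with a term for each embryo. The embryo numbers and the numbers in the titles pair the tissues of 3 Eed embryos differently, so that pairing is uncertain. The Trim28 interaction was not fitted without wild-type ExE embryo 6, whose 989 CPM lay far above the rest. In the other knockouts Trim28 did not pass, at -0.62 (edgeR adjusted p 0.122) in G9a-Glp, -0.71 (adjusted p 0.117) in Rnf2 and -0.46 (adjusted p 0.752) in Dnmt1. For Ehmt2 the difference was -1.92 (SE 0.63, adjusted p 0.0578) in G9a-Glp, -1.40 (SE 0.52, adjusted p 0.0594) in Eed, -1.14 (adjusted p 0.223) in Rnf2 and -0.68 (adjusted p 0.818) in Dnmt1, so none passed. The G9a-Glp value passed in 4 of 5 alternative fits, at adjusted p 0.0232 to 0.0495. Ehmt2 was itself targeted there, and its wild-type epiblast mean of 3.07 CPM left little room for a fall to be detected in that lineage. Members that passed were 0 of 7 in Dnmt1, G9a-Glp and Rnf2, where 0.282%, 6.83% and 6.82% of all genes passed.

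Allelic origin was then compared over the reciprocal crosses, which separate the parent from the strain. No member passed the test for parental bias: 0 of 6 in epiblast and 0 of 7 in ExE passed in edgeR, with 0 and 1 (Cbx5 in ExE, p 0.0177, adjusted p 0.564) under an unadjusted p of 0.05. Over all genes, 0.319% and 0.844% passed. The maternal share of Trim28 was 49.7% ± 1.25 (SD, n = 7) in the Bdf1xCast epiblast and 49.3% ± 3.22 (SD, n = 4) in the CastxBdf1 epiblast, over 8039 maternal and 8133 paternal reads in the former group and 4533 and 4735 in the latter.

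The test for strain bias was passed by 2 of 6 members in epiblast and 3 of 7 in ExE, beside 42.9% and 49.1% of all genes. The test compares the alleles with equal shares. The BDF1 share of Ehmt1 was 60.2% ± 6.58 and 59.4% ± 5.85 (SD, n = 7 and 4) in the epiblast of the crosses and 60.9% ± 4.48 and 58.8% ± 6.63 in the ExE, for log2 ratios of BDF1 to CAST of 0.61 (edgeR adjusted p 0.00132) and 0.57 (adjusted p 0.000790). The BDF1 share of Cbx5 was 57.8% ± 2.20 and 57.9% ± 2.99 in the epiblast (0.46, adjusted p 1.57e-06) and 58.9% ± 3.50 and 52.4% ± 5.19 in the ExE (0.33, adjusted p 0.000788). Suv39h2 passed in the ExE at 0.25 (adjusted p 0.0305), and did not without CastxBdf1 embryo 1 (adjusted p 0.0744), embryo 2 (adjusted p 0.0750) or embryo 3 (adjusted p 0.0702). The BDF1 share of all autosomal reads, averaged over libraries, was 56.4% to 57.7% in the 12 groups. This level weights each gene by its reads, so it is not the share of a typical gene. Against this level, the wild-type means of Ehmt1, at 58.8% to 60.9%, lay above, and those of Trim28, at 49.4% to 51.1%, and Suv39h2, at 53.6% and 55.1% in ExE, lay below. Cbx5 lay at it in the epiblast (57.8% and 57.9% against 57.7% and 57.6%) and on either side of it in the ExE (58.9% against 57.1% and 52.4% against 57.0%). No test of the members against this level was made.

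**Figure D5:**
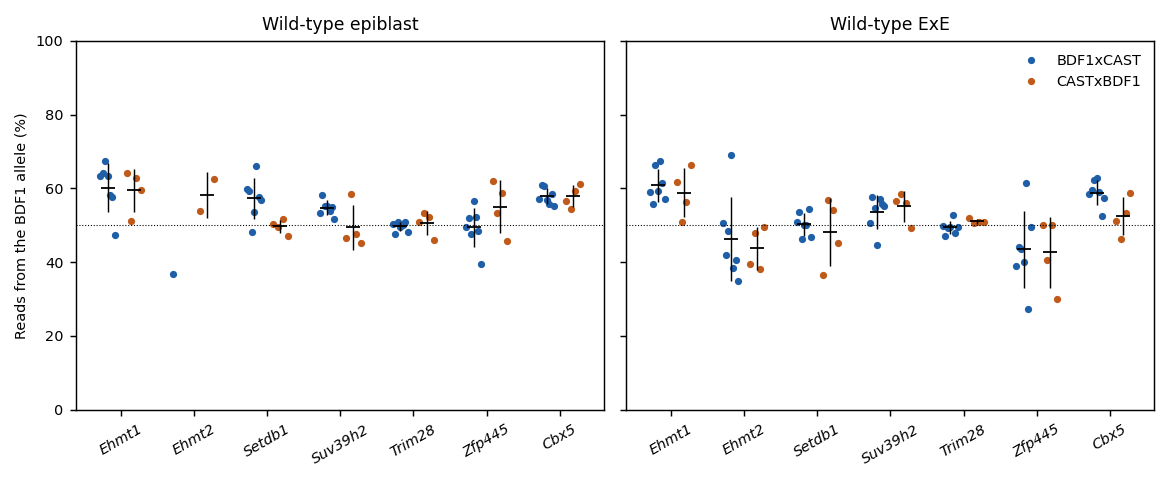
Percent of reads from the BDF1 allele for each member tested in wild-type libraries of both crosses, in epiblast and ExE, with the group mean. A share that follows the strain and not the parent stays on the same side of 50% in both crosses. Group means of Ehmt1 lie at 58.8% to 60.9% and those of Trim28 at 49.4% to 51.1%. All autosomal reads of these groups lie at 57.0% to 57.7%, and no member was tested against that level.

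The few reads of Zfp57 came almost wholly from the BDF1 allele. Of 23 reads in the wild-type ExE of both crosses 21 were BDF1 (91.3%, exact binomial 95% interval 72.0% to 98.9%), namely all 13 maternal reads in the Bdf1xCast cross and 8 paternal of 10 reads in the CastxBdf1 cross. Over all 72 libraries 106 of 114 Zfp57 reads were BDF1 (93.0%, interval 86.6% to 96.9%). In Bdf1xCast libraries BDF1 is the maternal allele, and only 10 of the 114 reads came from the reciprocal cross. Wiz had 27 BDF1 of 34 reads (79.4%, interval 62.1% to 91.3%). In the CastxBdf1 cross its 1 ExE read and 2 epiblast reads all came from CAST, the maternal allele there. So few reads cannot separate parent from strain for Wiz. Zfp644 had 114 BDF1 of 279 reads (40.9%, interval 35.0% to 46.9%). Reads of 1 library are not independent molecules, so the intervals cover counting error only.

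In the knockouts the maternal share of the members was tested against the wild type. None of 6 members in epiblast and none of 7 in ExE passed in any of the 8 comparisons (edgeR), against 0.894%, 1.79%, 0.686% and 1.06% of all genes in the Dnmt1, G9a-Glp, Rnf2 and Eed epiblast and 0.856%, 1.10%, 0.911% and 2.65% in the ExE. An unadjusted p under 0.05 was reached by Ehmt1 and Cbx5 in the G9a-Glp epiblast (log2 change -0.89, p 0.0172, and -0.26, p 0.0137) and by Cbx5 in the Dnmt1 ExE (-0.32, p 0.0330).

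The members moved with each other to different degrees over the 12 group means. Pearson's r of the log2 levels was 0.89 to 0.97 among Setdb1, Trim28, Zfp445 and Cbx5, and 0.80 to 0.85 between these and Suv39h2. It was -0.39 to -0.64 between Ehmt2 and those 5, and 0.49 between Ehmt1 and Ehmt2. These are descriptions of 12 points, which fall into 2 tissues and share libraries within each point. By the same measure, over 7689 genes with a mean of at least 10 CPM, the gene most like each member was Exo5 for Ehmt1 (r 0.88), Cbs for Ehmt2 (r 0.91), Pik3c2a for Setdb1 (r 0.98), Strap for Suv39h2 (r 0.98), Mcm2 for Trim28 (r 0.99), Ubqln4 for Zfp445 (r 0.99) and Dnajc10 for Cbx5 (r 0.98).

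The rest of the pathway was taken from 5 lists of 45 genes. In the Bdf1xCast lineage comparison 37 were tested, of which 5 were higher in ExE and 21 lower, with a median log2 difference of -0.66. Among all genes 28.3% were higher and 28.4% lower. Higher and lower genes numbered 0 and 1 of 3 other H3K9 methyltransferases, 1 and 4 of 5 partners of G9a-GLP or SETDB1, 1 and 7 of 12 HP1 paralogs and heterochromatin readers, 0 and 5 of 7 H3K9 demethylases and 3 and 4 of 10 genes of imprint protection and other KRAB zinc fingers. In the CastxBdf1 cross 4 of 36 were higher and 18 lower, with a median of -0.67, beside 22.0% and 23.0% of all genes. Zfp42 (REX1), at 287 ± 55.0 CPM in ExE and 5.22 ± 2.12 CPM in epiblast (SD, n = 7 each), had the largest rise (log2 5.83, and 4.61 in the CastxBdf1 cross). Atrx, a chromatin remodeller of heterochromatin, rose by 1.35 and 1.70. Dppa3, which shields methylation in the zygote, fell by 2.49 in the Bdf1xCast and fell by 2.68 in the CastxBdf1 cross, the demethylase gene Kdm7a fell by 2.63 in the Bdf1xCast cross and the reader gene Trim24 fell by 1.95 in the CastxBdf1 cross.

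Against the wild-type epiblast, 2 of 37 pathway genes rose and 1 fell in Dnmt1, 3 and 3 in G9a-Glp, 2 and 11 in Rnf2 and 1 and 9 in Eed. Their medians were 0.35, -0.05, -0.27 and -0.17. Among all genes, 6.92% rose and 7.02% fell in Dnmt1, 19.6% and 15.0% in G9a-Glp, 18.3% and 12.8% in Rnf2 and 18.0% and 18.9% in Eed. By list, the largest counts were the falls of 6 of 12 HP1 paralogs and readers in Eed, 4 of 12 of the same list in Rnf2 and 3 of 5 partners of G9a-GLP or SETDB1 in Rnf2. No other H3K9 methyltransferase of 3 tested passed in any of the 8 knockout comparisons. Dppa3 rose by 4.19 in Rnf2, from 10.7 ± 5.83 CPM (SD, n = 7) to 197 ± 125 CPM (SD, n = 6), and by 3.14 in Eed, to 109 ± 49.5 CPM (SD, n = 9). Zfp42 rose by 2.42 in Rnf2, Atrx by 1.20 and the SETDB1 partner gene Atf7ip by 0.96 in Dnmt1, and Trim24 by 0.70 and Jmjd1c by 0.65 in G9a-Glp. Cbx1, which encodes the paralog HP1 beta, fell by 0.93 in Dnmt1 and by 1.08 in Eed, and Cbx3, which encodes HP1 gamma, fell by 0.98 in Eed. In G9a-Glp Zfp708 fell by 1.07 and the demethylase gene Kdm3a by 1.01, and in Rnf2 Kdm7a fell by 1.35 and Zfp932 by 1.16.

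Against the wild-type ExE, 0 of 35 pathway genes rose and 2 fell in Dnmt1, 2 and 2 in G9a-Glp, 0 and 6 in Rnf2, and 3 and 14 of 36 in Eed. Their medians were -0.06, -0.13, -0.45 and -0.37. Among all genes, 8.54% rose and 9.96% fell in Dnmt1, 8.73% and 6.42% in G9a-Glp, 12.2% and 9.99% in Rnf2 and 22.7% and 18.1% in Eed. The pathway falls in Eed included 7 of 12 HP1 paralogs and readers and 3 of 5 partners. Dppa3 rose by 4.05 in Eed, from 1.81 ± 2.09 CPM (SD, n = 7) to 32.9 ± 21.4 CPM (SD, n = 10), and Zfp42 fell there by 1.88, from 287 ± 55.0 to 89.1 ± 35.9 CPM. Jmjd1c, a demethylase-family gene, fell by 1.69 in Rnf2 and by 1.47 in Eed. Atrx fell by 0.85 in Rnf2, and Kdm4b rose by 0.64 in Eed. Cbx1 fell by 1.22 and Mphosph8 by 0.81 in Dnmt1. In G9a-Glp Zfp809 rose by 0.61, Resf1 by 0.59, and Zfp568 fell by 0.64 and Cbx1 by 0.58. The summed mesoderm markers, which differ with the stage of the epiblast, had medians of 433 CPM in the wild-type Bdf1xCast epiblast and 513, 78.8, 54.9 and 109 CPM in the Dnmt1, G9a-Glp, Rnf2 and Eed epiblast, and their part in the epiblast values was not tested.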

How the data were processed

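RNA-seq of epiblast and ExE of single E6.5 mouse embryos was analysed in 72 libraries of 12 groups set by the labels; a bisulfite sample was not analysed here. Per the file headers, the authors deposited the unnormalized count of reads over BDF1/CAST polymorphisms, an allelic ratio (CAST share) and an allelic score (signed -log10 p, 0 under 10 reads). STAR 2.5.0, HTSeq and mm10 are named in the submitters' processing notes, with no roles given. A blank count was read as 0. For values of 10 or more reads, allele reads were recovered as the whole number that best matched the score. The match was within 0.002 for 712029 values, 99.986% of those below the score limit of 300. Under 10 reads, as in every library for Zfp57 and Wiz, the ratio times the reads was rounded to a whole number.

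Counts were fitted for all genes with edgeR 4.0.16 (R 4.3.3; TMM, filterByExpr, quasi-likelihood test, Benjamini-Hochberg over all genes tested, threshold 0.05) on the groups compared. Alleles were fitted with a term for each library, for autosomal genes that reached 10 reads in 3 or more libraries per group. Members below the filter were compared by unpaired exact permutation of CPM. Alternatives were RLE or library-total scaling, no filter, DESeq2 1.42.0, sex as a covariate and thinned depth. Others were all Bdf1xCast groups in 1 fit, an embryo block and leaving out replicates. A further 5 settings that leave out particular libraries were chosen after seeing the data. Depth limits precision most in libraries near 1141414 reads.

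The members, the 5 pathway lists and the marker lists were chosen with earlier results of these data known. Beside the members, the text names, per comparison, up to 2 listed genes in each direction with the largest change past the threshold, and for each member the gene with the highest correlation over group means of log2(CPM + 1). Tissues of 1 embryo pair by design in the wild type (correlation of deviations 0.015 to 0.420, 7 pairs; 0.048 to 0.333, 4 pairs). Sequences are from RefSeq.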

Additional observations from a re-analysis of the deposited data

Results flagged for a closer look

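In 72 group values of members with 4 to 10 libraries, 10 had 1 library far from the rest; chance gives about 1 in 20. Setdb1 stood apart in the wild-type Bdf1xCast epiblast embryo 8 (84.6 CPM, next 56.5), in the CastxBdf1 epiblast embryo 2 (83.1 CPM, next 42.7) and in the Rnf2 epiblast embryo 8 (20.9 CPM, next 30.4). The first 2 of these libraries also had the highest visceral endoderm marker sums of the wild-type epiblast, and the third had the lowest epiblast marker sum (1905 CPM) and the highest ectoplacental cone marker sum (180.5 CPM) of the Rnf2 epiblast. The part of these markers was not tested.

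The wild-type Bdf1xCast ExE embryo 6 was high for both Trim28 (989 CPM, next 588) and Zfp445 (79.4 CPM, next 60.3). The G9a-Glp ExE embryo 2 was high for Trim28 (461 CPM, next 350.0), Zfp445 (86.9 CPM, next 49.1) and Cbx5 (225 CPM, next 159), and the epiblast of the same number was high for Cbx5 (298 CPM, next 239). Ehmt2 was low in the CastxBdf1 ExE embryo 2 (12.4 CPM, next 22.7).

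Trim28 was the only member to pass the test for a different Eed response between lineages, where 15.9% of all genes passed. The log2 difference was -0.68 in ExE relative to epiblast (edgeR adjusted p 0.0399). It did not pass with no filter on low counts (adjusted p 0.0540) or with a term for each embryo (adjusted p 0.0507), where the Eed pairing is uncertain. No fit left out wild-type ExE embryo 6, which was high for Trim28.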

How the results depend on the processing

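Of 97 member results on total reads 38 passed the test. Of these, 18 passed under every alternative run and 20 lost the threshold under some, 64 of 395 times in all, and none changed sign; 7 of the 59 that did not pass did so under some alternative. Among results that did not pass, 34 changed sign, from values of at most 0.27 in size to at most 0.24. Of 65 allelic member results 5 passed, 4 of them under every alternative. The embryo block did not pair knockout with wild-type embryos (lowest pair correlation -0.336), and in the wild type the pairing by embryo changed no member call. The cause of the changes below was not tested. Counting noise limits Ehmt2 in the epiblast and Wiz, Zfp57 and Zfp644 everywhere.

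Genes that passed in the Bdf1xCast lineage comparison numbered 8651 with no filter, and members that passed in the CastxBdf1 cross numbered 3 to 6 with 1 embryo left out. In the Dnmt1 epiblast 2284 genes and 2 members passed with all Bdf1xCast groups in 1 fit, 2448 genes and 2 members without wild-type embryo 8, 2 members with DESeq2, 0 members with the replicate block, and 669 to 972 genes and 0 to 1 members with 1 embryo left out. In the Dnmt1 ExE 609 to 1047 genes and 0 members passed with 1 embryo left out, and 1047 genes and 0 members passed without embryo 1. In the G9a-Glp epiblast 1 member passed with library totals and 1 with no filter, and in its ExE 2237 genes and 5 members passed with all groups in 1 fit. In the Rnf2 epiblast 2 members passed with no filter, 3 at thinned depth, and 1150 genes and 0 members with the replicate block. In the Rnf2 ExE 495 genes and 0 members passed with the replicate block, 2 members at thinned depth, 529 genes and 0 members without embryos 2, 5 and 6, and 2 to 4 members with 1 embryo left out. In the Eed epiblast 3 members passed with RLE scaling, at thinned depth and without wild-type embryo 6, and 1917 genes and 3 members with the replicate block.

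For the difference between lineages, genes that passed in Dnmt1 numbered 64 with no filter, 110 with DESeq2 and 12 to 16 with 1 replicate left out. In G9a-Glp 1 member passed with library totals, with no filter, with DESeq2 (1167 genes) and with the embryo block. In Rnf2 398 genes passed with the embryo block. In Eed 2 members passed with no filter, 2 with DESeq2 and 0 with the embryo block. For alleles, with 1 replicate left out, genes that passed numbered 36 to 38 in the Dnmt1 epiblast, 28 to 40 in its ExE and 50 to 81 in the Rnf2 ExE.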

Other observations

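The BDF1 share of Zfp445 reads was lower in the ExE than in the epiblast of each of the 6 kinds of embryo by group mean. It was 43.5% ± 10.4 against 49.4% ± 5.31 (SD, n = 7 each) in the Bdf1xCast wild type and 42.6% ± 9.58 against 54.9% ± 7.18 (SD, n = 4 each) in the CastxBdf1 wild type. In the knockouts it was 47.7% against 54.2% in Dnmt1, 42.7% against 53.6% in G9a-Glp, 38.8% against 51.6% in Rnf2 and 42.9% against 52.5% in Eed. This pattern was noticed after the values were seen, and a difference of alleles between tissues was not tested.

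The Ehmt2 promoter has a further start, whose window of 250 bases on chr17:34898720-34898969 held 36 CpG dinucleotides and 4 GC boxes; which start was used in which lineage was not tested.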
